A study of Mus musculus with 97 samples.

Results

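The nuclear-encoded subunits of oxidative phosphorylation were taken as all genes whose symbol starts with Ndufa, Ndufb, Ndufc, Ndufs, Ndufv, Uqcr, Cox4i, Cox5, Cox6, Cox7, Cox8 or Atp5, together with Sdha, Sdhb, Sdhc, Sdhd and Cyc1. Assembly factors named Ndufaf were left out. The choice was by name and used no measured value. The 87 members described here are 0.436% of the 19962 genes measured: 37 of complex I, 4 of complex II, 9 of complex III, 20 of complex IV and 17 of complex V. Of the complex IV genes, 8 are isoforms known for restricted use, most of them in other tissues.

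These proteins form the respiratory chain of the inner mitochondrial membrane. Complex I (NADH dehydrogenase) and complex II (succinate dehydrogenase) pass electrons to coenzyme Q, complex III (the cytochrome bc1 complex) passes them on to cytochrome c, and complex IV (cytochrome c oxidase) hands them to oxygen. Complexes I, III and IV pump protons, and complex V (ATP synthase) uses the gradient to make ATP, on which neurons depend for ion pumping and synaptic transmission.

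Libraries were made with the NanoString GeoMx system, in which probes bound to RNA in a brain section carry tags that light releases from a chosen region for sequencing. The mice were older and carried human APOE3 or human APOE4 in place of the mouse gene. The study set both alleles, 3 treatments and 2 brain regions against each other, which gave 12 groups of 8 captured regions each, with 9 in APOE3 DD cortex. The labels give neither the number of animals nor which captured regions share one, and they do not say how regions were chosen within cortex or hippocampus. The APOE3 groups were vehicle, DD and DC, each in cortex and in hippocampus, and the APOE4 groups were the same. Vehicle was an equal mixture of DMSO and phosphate-buffered saline. DD was doxorubicin at 3 mg/kg per week with docetaxel at 10 mg/kg per week, and DC was doxorubicin at 3 mg/kg per week with cyclophosphamide at 40 mg/kg per week. All mice, vehicle mice included, were injected into the peritoneum 2 times per week for 2 weeks. Every APOE4 library lay on 1 collection plate and every APOE3 library on the other, so genotype and plate cannot be told apart.

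Counts were low. The median library had a total of 44846, the smallest 21568 and the largest 1850582. The negative probe, a combined value of probes without a target that measures background, had a median of 1.27 in APOE3 and 2.68 in APOE4 libraries. The lowest value in the table is 1. It was the value of 67.8% of the members in the median APOE3 library and of 23.6% in the median APOE4 library. Every level below is a ratio, the value of a gene divided by the negative probe of the same library, so that 1 is background and a gene at the lowest value lies below 1. The labelled tissues were hard to see in their markers: 0 of 9 neuronal, 0 of 7 cortical and 0 of 7 hippocampal markers had a median ratio above 2 in either region. Of all genes, 0.486% in cortex and 0.301% in hippocampus did so. Slc17a7, the glutamate transporter of cortical excitatory neurons, stood at 1.85 in cortex and 1.08 in hippocampus, and the hippocampal markers in hippocampus ran from 0.815 to 0.985.

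Promoters of 3 leading members are shown because nuclear respiratory factor 1 (NRF1), ETS-family factors such as GABP, and YY1 are known regulators of genes for the respiratory chain. The windows are those of RefSeq on GRCm38.p6, the assembly behind mm10, and run from 250 bases before to 50 bases after the transcription start. Of the 8 highest cortical members, 6 had a window, and those shown are the 3 whose window held a motif of these factors; the windows of Ndufa7, Atp5g3 and Ndufa8 held none. They are written 5′ to 3′ on the gene's strand with the searched motif in capitals. Cox6a1 encodes a subunit of complex IV (chr5:115348909-115349208, minus strand, NRF1 motif), Cox8a encodes another (chr19:7217567-7217866, minus strand, 2 ETS motifs), and Ndufa9 encodes an accessory subunit of complex I (chr6:126849095-126849394, minus strand, YY1 motif).
Cox6a1: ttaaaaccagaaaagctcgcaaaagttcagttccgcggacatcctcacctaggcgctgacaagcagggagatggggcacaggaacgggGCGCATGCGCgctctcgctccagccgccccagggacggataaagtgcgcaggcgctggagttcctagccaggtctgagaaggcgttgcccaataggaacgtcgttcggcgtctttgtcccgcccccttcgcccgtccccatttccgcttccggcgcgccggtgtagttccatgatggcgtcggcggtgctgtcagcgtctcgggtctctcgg
Cox8a: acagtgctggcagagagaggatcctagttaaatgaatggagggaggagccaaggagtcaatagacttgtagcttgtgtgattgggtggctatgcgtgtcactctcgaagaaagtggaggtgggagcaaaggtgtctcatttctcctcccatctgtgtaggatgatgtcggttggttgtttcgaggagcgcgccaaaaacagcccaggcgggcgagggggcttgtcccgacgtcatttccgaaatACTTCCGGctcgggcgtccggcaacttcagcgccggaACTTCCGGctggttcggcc
Ndufa9: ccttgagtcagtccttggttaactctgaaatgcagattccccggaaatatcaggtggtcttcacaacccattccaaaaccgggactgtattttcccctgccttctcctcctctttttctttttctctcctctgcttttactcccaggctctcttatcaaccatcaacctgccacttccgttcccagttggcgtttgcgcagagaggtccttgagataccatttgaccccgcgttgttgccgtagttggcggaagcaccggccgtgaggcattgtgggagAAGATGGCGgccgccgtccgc
Such windows were at hand for 70 of the 87 members, 75 windows in all. The NRF1 motif, a palindrome of 10 letters shown in capitals in the Cox6a1 window, was in 5 of the 75 windows, or 6.67%, against 0.971% of all 32851 windows. Those 5 belonged to Atp5g2, Atp5k, Cox6a1, Ndufa11 and Uqcrc1. The ETS motif, CCGGAAGT or on the other strand ACTTCCGG, was in 5 windows, or 6.67%, against 3.89%. The YY1 motif, AAGATGGCG or CGCCATCTT, was in 7, or 9.33%, against 1.40%. TATAAA, searched on the gene's strand, was in 3, or 4%, against 8.32%. Ndufs7 held both the YY1 motif and TATAAA and is counted under each. The median window held 57.7% G and C and 19 CpG pairs in the members, against 52.7% and 7 in all windows. These are matches of letters, described without a test.

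Most members were not above background. The median over the 87 median ratios was 0.944 in cortex, where it was 0.936 over all genes, and 0.912 in hippocampus, where it was also 0.912 over all genes. The 0.944 equals the lowest value, 1, divided by the negative probe of 1 library, APOE3 vehicle cortex 7. A median just below 1 can thus follow background alone, and small gaps between such medians do not order genes or complexes. In cortex 22 members, 25.3%, had a median ratio above 1, against 17.7% of all genes. In hippocampus 18 members, 20.7%, did so, against 16.5%. A median ratio above 2 was reached by 0 members in either region, while 97 genes reached it in cortex and 60 in hippocampus. These are 0.486% and 0.301% of all genes, so 0 of 87 members is near the share over all genes. Above 1.5 there were 3 members in cortex, 3.45% against 1.07% of all genes, and 0 in hippocampus. Over all 8439 member values, 10.1% lay above 2, against 8.57% of all values. The largest member value outside the libraries with a negative probe of 5 or more, and outside Atp5pb, was a count of 14.

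**Figure D1:**
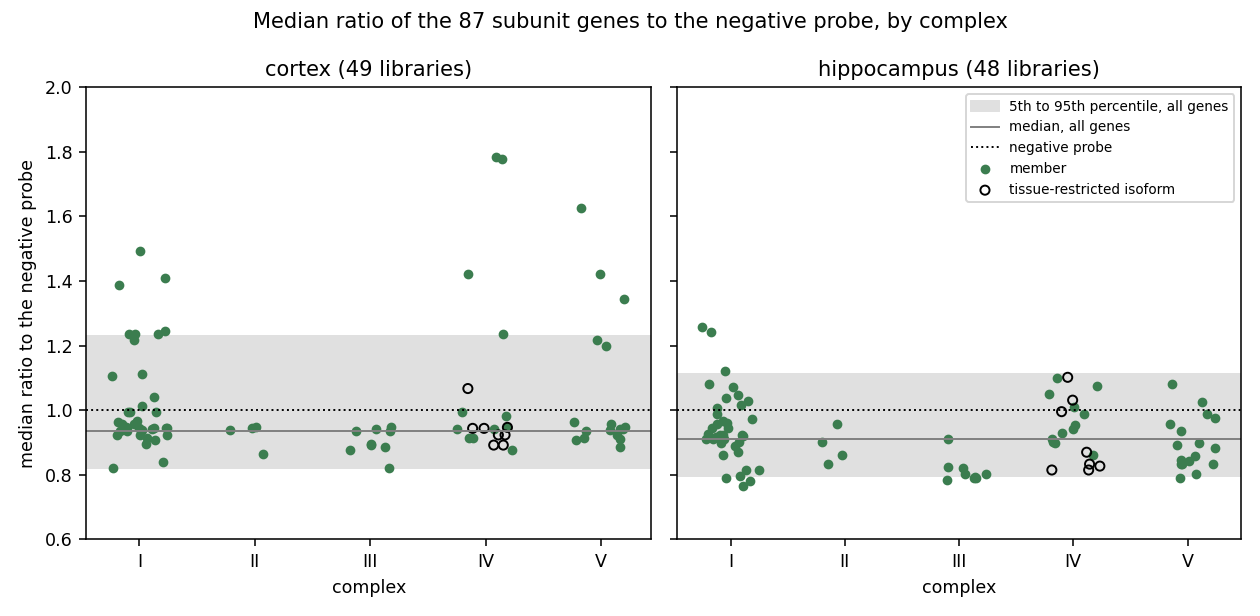
Median ratio to the negative probe of each of the 87 members (points), by complex, over 49 cortex libraries (left) and 48 hippocampus libraries (right). Open circles are tissue-restricted isoforms, the grey band is the 5th to 95th percentile of all 19962 genes, and no member reaches 2; complex III lies below 1 in both regions.

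Complex I held 12 of its 37 genes above 1 in cortex and 10 in hippocampus. Its leading genes encode accessory subunits around the catalytic core. Ndufa7 had a median ratio of 1.49 in cortex and 1.24 in hippocampus, and lay above the negative probe in 34 of 49 and 27 of 48 libraries. Ndufa8 stood at 1.41 in cortex and 0.966 in hippocampus, and Ndufa9 at 1.39 and 0.924. Ndufa6 was the highest member in hippocampus at 1.26, with 1.23 in cortex. Ndufb5 had 1.12 in hippocampus and 1.23 in cortex. Ndufab1, the mitochondrial acyl carrier protein, stood at 1.08 in hippocampus and 0.936 in cortex. The core genes did not share 1 level. Ndufs7 and Ndufs3, both core subunits, had 1.22 and 0.964 in cortex and 1.01 and 1.05 in hippocampus. Ndufs1, an iron-sulphur subunit, had 0.994 in cortex and 0.919 in hippocampus, and Ndufv1, the NADH-binding subunit, had 0.896 and 0.782. Ndufv1 and Ndufb10, an accessory subunit at 0.840 and 0.765, were among the 4 lowest members over all libraries.

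Complexes II and III had 0 genes above 1 in either region. The 4 succinate dehydrogenase genes ran from 0.864 to 0.947 in cortex and from 0.833 to 0.956 in hippocampus; Sdha, the flavoprotein subunit, stood at 0.947 and 0.860. The 9 complex III genes ran from 0.821 to 0.947 in cortex and from 0.783 to 0.912 in hippocampus, with medians of 0.896 and 0.803. Uqcrc1, a core subunit, had 0.876 and 0.790, and Uqcrq, which binds ubiquinone, had 0.821 and 0.803. Both were among the 4 lowest members. In cortex Sdha and Cyc1, a complex III gene, shared 0.947, which equals the lowest value divided by the negative probe of APOE3 DC cortex 7. These ranges thus give no order of levels between genes or complexes.

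Complex IV held the 2 highest cortical members. Cox8a ran from 0.356 to 6.05 over the 49 cortex libraries with a median of 1.78, and from 0.371 to 5.91 over the 48 hippocampus libraries with a median of 1.07. It lay above the negative probe in 39 and 28 libraries. Cox6a1 ran from 0.302 to 5.31 in cortex with a median of 1.78, and from 0.488 to 2.99 in hippocampus with a median of 0.988, above the negative probe in 34 and 23 libraries. The ranges of the regions overlapped for both genes. Cox4i1, the widely used form of a regulatory subunit, had medians of 1.42 and 0.942, and Cox5a had 0.941 and 0.900. Ndufa4, counted with complex IV, stood at 0.994 in cortex and 1.10 in hippocampus.

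Most of the tissue-restricted isoforms are best known from other tissues, but mural cells, which use Ndufa4l2, are also found in brain. Whether brain cells use any of the others was not tested, so the isoforms do not set an off-tissue level. The 8 isoforms had a median ratio of 0.933 in cortex and 0.851 in hippocampus, against 0.964 and 0.949 for the other 12 complex IV genes. Cox7b2 and Cox4i2 shared 0.944 in cortex, which equals the lowest value divided by 1 library's negative probe. Small gaps between medians below 1 are thus not read as differences in level. Cox6b2, a testis isoform, was at 1.10 in hippocampus and 0.923 in cortex, and Cox6a2, of heart and skeletal muscle, was at 1.03 and 1.07. In hippocampus both thus stood above Cox4i1 and Cox5a. The other testis isoforms, Cox7b2 and Cox8c, had 0.944 and 0.892 in cortex and 0.995 and 0.815 in hippocampus. Cox7a1 and Cox8b, of heart and skeletal muscle, had 0.947 and 0.923 in cortex and 0.833 and 0.827 in hippocampus. Cox4i2, of lung, had 0.944 and 0.815, and Ndufa4l2, which is induced by low oxygen and used by mural cells, had 0.892 and 0.870.

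Complex V was led by Atp5a1, the alpha subunit of the catalytic head, with a median ratio of 1.62 in cortex and 0.935 in hippocampus. Its values ran from 0.553 to 7.51 in cortex and from 0.488 to 3.55 in hippocampus. Atp5g3, a gene for the c ring, had 1.42 and 1.08. Atp5b, the beta subunit that pairs with alpha in the same head, was at 0.941 in cortex and 0.833 in hippocampus. Complex V thus held subunits of 1 assembly at different ratios, though probes of different genes need not bind equally well and no order between genes was tested.

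The library with the most counts gave the narrowest counting error, but few genes of any kind stood out in it. APOE4 DC hippocampus 8 had a negative probe of 93.1 and a total of 1850582 counts, and its member ratios ran from 0.677 to 1.21 with a median of 0.956. Of all genes 0.0651% lay above 2 there, against 8.57% of all values over the 97 libraries. Its mean ratio over all genes, 0.996, was the lowest of the 97. By exact Poisson 95% intervals, which cover counting error only and take the negative probe as known, 1 member lay above 1 and 10 lay below. These are 1.15% and 11.5% of the members, against 5.45% and 7.14% of all genes. The 1 above was Ndufb1, an accessory subunit of complex I, with 113 counts and a ratio of 1.21 (1.00 to 1.46). Cox8a had 65 counts there, a ratio of 0.699 (0.539 to 0.890), and Cox6a1 and Atp5a1 each had 89 counts, a ratio of 0.956 (0.768 to 1.18). The leading members of cortex were thus at or below background in this hippocampus library, where nearly all genes lay below 2. Of the 97 libraries, 13 had a negative probe of 5 or more, all of them APOE4, and in these the median over members was 0.992, against 1.01 over all genes. Most of the 13 were DC libraries, the rest were DD, and vehicle had no such library. Comparisons of APOE4 DC with vehicle, with DD or with APOE3 DC thus set groups of unlike background against each other.

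**Figure D2:**
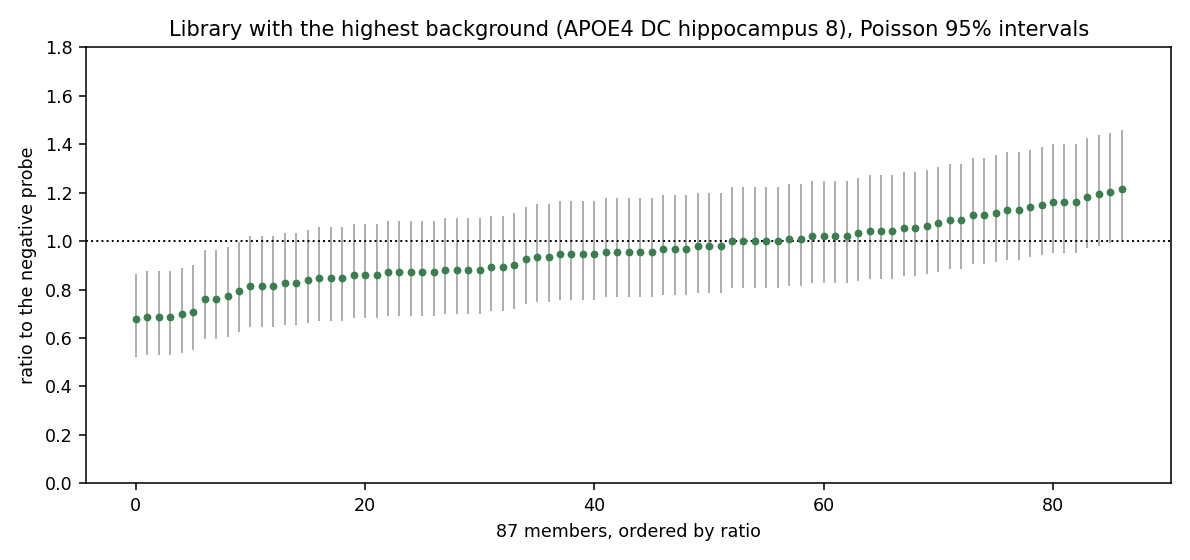
Ratio to the negative probe of each of the 87 members (points, in rising order) in APOE4 DC hippocampus 8, with exact Poisson 95% intervals (bars). The dotted line is background; the values run from 0.677 to 1.21, and 1 interval lies wholly above 1 and 10 wholly below.

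Cortex and hippocampus were compared first. Of the 87 members, 66 had a higher median ratio in cortex, 75.9%, against 67.8% of all genes, and the largest gap was that of Cox6a1, 0.789. Summed over the members and divided by 87 times the negative probe, the mean ratio ranged from 0.934 to 1.63 over the 97 libraries with a median of 1.13. The same mean over all genes had a median of 1.18, and the members' mean was below it in 71 of 97 libraries. The all-gene mean takes in a few very high genes, such as Mtch2 with median ratios of 358 in cortex and 644 in hippocampus. A members' mean below it thus does not place them below the typical gene. On the log2 scale the members' mean ratio was lower in hippocampus in 6 of 6 matched pairs of groups, with differences from -0.047 to -0.13. That of all genes was lower in 5 of 6. In APOE4 DC libraries the members differed by -0.13 and all genes by -0.15. By the members' median in place of their mean, hippocampus was lower in 4 of 6, with 0.068 in APOE4 vehicle and 0.012 in APOE4 DD libraries. Where most members of a library held the lowest value, this median was 1 divided by the negative probe and followed background alone. The members' mean ratio in APOE3 vehicle libraries was 1.14 ± 0.0631 in hippocampus (SD, n = 8) and 1.20 ± 0.0733 in cortex (SD, n = 8). In APOE4 DC libraries it was 1.05 ± 0.115 (SD, n = 8) and 1.15 ± 0.121 (SD, n = 8). In 6 of 6 pairs the groups overlapped and the gap was less than 1 pooled SD. Without APOE4 vehicle hippocampus 6, described below, the APOE4 vehicle gap went from -0.12 to -0.19, or 1.98 times the pooled SD, and the groups still overlapped. A lower sum cannot tell fewer cells of a type from less RNA per cell.

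In single genes, edgeR's quasi-likelihood test with Benjamini-Hochberg adjustment over all 19962 genes, at a threshold of 0.05, called 1 of 522 member tests between the regions, 0.192%, against 0.199% of all gene tests. It rested on 1 library and is described below. All p-values here count captured regions, not animals, as replicates; if several regions came from 1 animal, these p-values are too small. With the 6 pairs averaged, 0 members were called, against 0.386% of all genes, and 4 had an unadjusted p under 0.05. Cox6a1 had the smallest, with a log2 difference of -0.58 ± 0.17 (SE) and an adjusted p of 0.144. DESeq2, scaling to the negative probe and upper-quartile scaling each put this difference past the threshold, with adjusted p from 0.041 to 0.047. Atp5a1 had -0.50 ± 0.17 (SE) and an adjusted p of 0.460. The averaged comparisons, here and below, were added after the values had been seen.

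**Figure D3:**
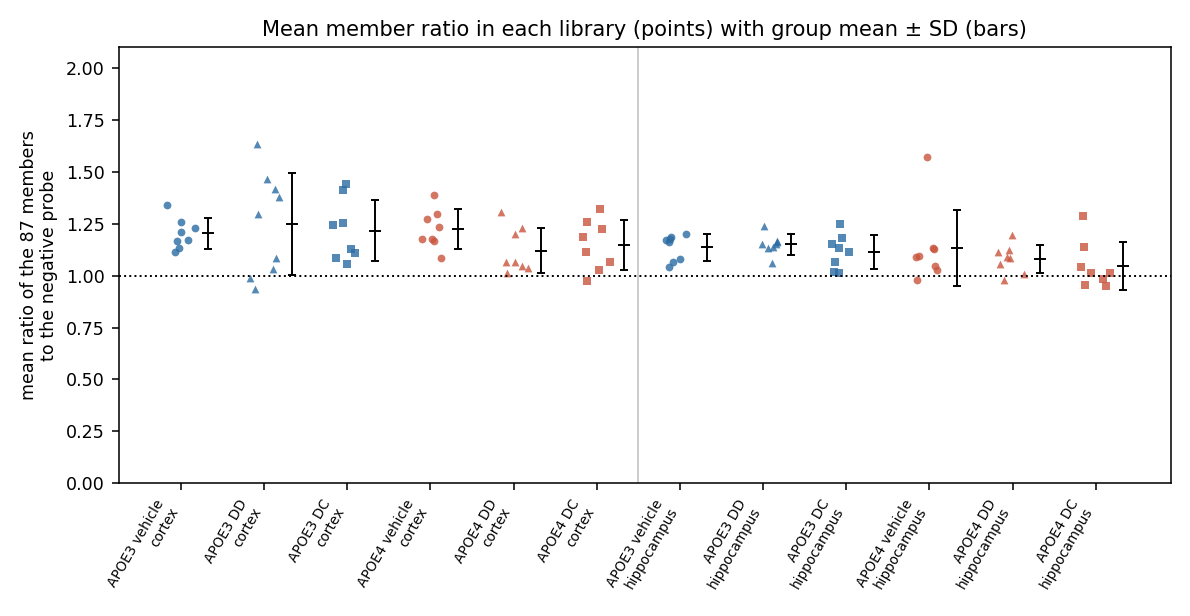
Mean ratio of the 87 members to the negative probe in each library (points; blue APOE3, red APOE4; circles vehicle, triangles DD, squares DC), with group mean ± SD beside them (bars). The groups of each comparison overlap, and the high point of APOE4 vehicle hippocampus (1.57) is a single library.

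Treatment was compared with vehicle within each genotype and region. From vehicle to DD the members' mean ratio went from 1.20 ± 0.0733 (SD, n = 8) to 1.25 ± 0.246 (SD, n = 9) in APOE3 cortex and from 1.14 ± 0.0631 (SD, n = 8) to 1.15 ± 0.0497 (SD, n = 8) in APOE3 hippocampus. In APOE4 cortex it went from 1.22 ± 0.0945 to 1.12 ± 0.109 (SD, n = 8 each), a log2 difference of -0.13, which is 1.05 times the pooled SD, with overlapping groups. Over all genes the same log2 difference was -0.048, and by the members' median it turned to 0.089. By the median, DD in APOE3 cortex differed by 0.30, and 7 of the 8 treatment differences were above 0, where 5 of 8 were below 0 by the mean. In every APOE3 vehicle library most members held the lowest value, so this median followed the negative probe alone. The APOE3 differences by the median thus mix background with the members. By the mean, the DC differences ran from -0.11 in APOE4 hippocampus to 0.0091 in APOE3 cortex, where all genes differed by -0.15 and -0.020. In APOE3 hippocampus members differed by -0.028 and all genes by -0.10. In APOE4 cortex it was the members that differed more, by -0.098 against -0.029. The APOE4 hippocampus difference turned its sign without libraries of negative probe 5 or more, which left only APOE4 DC hippocampus 3 and 4 in the DC group. Without APOE4 vehicle hippocampus 6 the differences in APOE4 hippocampus were -0.037 for DC and 0.014 for DD, which was -0.056 with it. DD and DC were set against the same vehicle libraries, so these comparisons are not independent.

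The edgeR test called 2 of 696 member tests between a treatment and vehicle, 0.287%, against 0.186% of all gene tests. Both calls were of Atp5pb, subunit b of the ATP synthase stalk, in APOE4 hippocampus: 1 of 87 members against 0.421% of all genes for DD, and 1 of 87 against 0.837% for DC. In the 8 vehicle libraries its ratios were 0.371, 0.543, 1.84, 0.580, 0.488, 29.8, 0.499 and 0.732. A single library, APOE4 vehicle hippocampus 6, held 56 counts, and the other 7 held 1 to 4. In DD libraries Atp5pb ran from 0.185 to 2.24 and in DC libraries from 0.426 to 1.22, so that these values overlap the other 7 vehicle libraries. The log2 difference of DD from vehicle was -1.87 ± 0.42 (SE; adjusted p = 0.0028, edgeR) and that of DC was -2.12 ± 0.33 (SE; adjusted p = 3.6e-08, edgeR). Without that library they were 0.42 and 0.18, with adjusted p of 0.995 and 0.974. The third call of Atp5pb, higher in hippocampus than in cortex of APOE4 vehicle mice (log2 1.64 ± 0.42 SE, adjusted p = 0.0236, against 0.461% of all genes called), went to -0.66 without it. In APOE4 cortex, 7 members had an unadjusted p under 0.05 after DD and 8 after DC, 8.05% and 9.20%, against 4.47% and 5.41% of all genes. Of these, 6 of the 7 and 8 of the 8 were lower than in vehicle. How all genes split by direction is not given here, and both treatments share the same vehicle libraries, so the split is not read as particular to the members. Past the adjusted threshold there were 0 members, against 0.0852% and 0.0651% of all genes. With the 4 pairs averaged, 0 members were called for DD and 0 for DC, against 0% and 0.02% of all genes; 0 and 3 had an unadjusted p under 0.05.

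**Figure D4:**
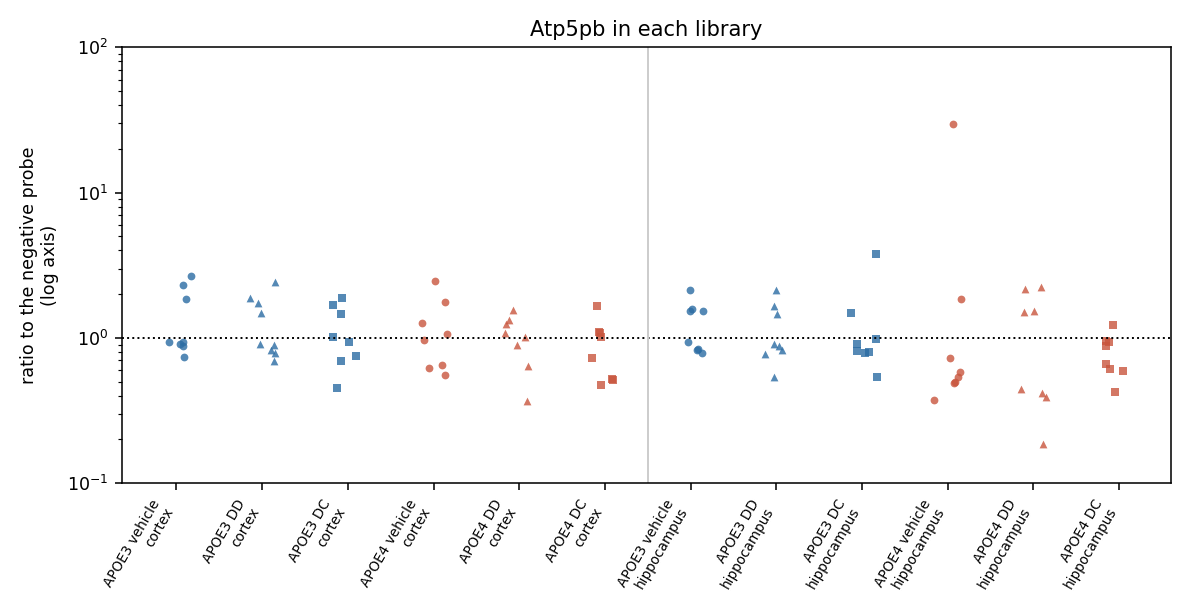
Ratio to the negative probe of Atp5pb in each library, on a log axis (blue APOE3, red APOE4; circles vehicle, triangles DD, squares DC). A single point stands apart at 29.8, in an APOE4 vehicle hippocampus library.

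APOE4 vehicle hippocampus 6 also held 64 genes above 10 times its negative probe, where the other libraries had a median of 22.5 and ran from 1 to 82. The library with 82 was APOE4 vehicle hippocampus 3, of the same group, and no fit was made without it. Of those 64 genes, 35 were below 5 times the negative probe in each of the other 96 libraries, and Atp5pb was the only member among them.

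APOE4 and APOE3 were compared within treatment and region. On the log2 scale the members' mean ratio was lower in APOE4 in 5 of 6 pairs, with differences from -0.14 in DD cortex to 0.024 in vehicle cortex, and in 6 of 6 the groups overlapped. All genes were lower in 4 of 6, and in DC hippocampus members and all genes differed by -0.094 and -0.092. By the members' median the direction turned in 4 pairs, so that APOE4 was lower in 1 of 6. In the median APOE3 library most members held the lowest value, so that median followed the negative probe, which was lower in APOE3. Without APOE4 vehicle hippocampus 6 the vehicle hippocampus difference went from -0.015 to -0.085, or 1.07 times the pooled SD. In DD hippocampus the APOE4 libraries had 1.08 ± 0.0678 and the APOE3 libraries 1.15 ± 0.0497 (SD, n = 8 each), a difference of -0.090, more than the pooled SD of 0.078; it was -0.015 over all genes and 0.14 by the members' median.

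The test called 1 of 522 member tests between the genotypes, 0.192%, against 0.0701% of all gene tests. This was Cox6a1 in DD cortex, where 0.1% of all genes were called. Its ratios in the 9 APOE3 libraries were 2.46, 0.892, 0.790, 3.48, 1.89, 5.18, 1.99, 4.14 and 1.83, from counts of 1 to 12. In the 8 APOE4 libraries they were 0.644, 0.302, 2.24, 1.62, 0.668, 0.731, 1.87 and 1.14, from counts of 1 to 8. The groups overlapped: 4 APOE3 libraries lay above all APOE4 libraries, and 2 APOE3 and 4 APOE4 libraries lay below background. The APOE3 libraries had a mean ratio of 2.52 ± 1.48 (SD, n = 9) and the APOE4 libraries one of 1.15 ± 0.688 (SD, n = 8), a log2 difference of -1.44 ± 0.32 (SE; adjusted p = 0.0110, edgeR). Of 17 fits that each left out 1 library of the 2 groups, 13 kept the call. Without APOE4 DD cortex 2 the adjusted p was 0.699 at a log2 difference of -1.08, and without APOE3 DD cortex 6, 4 or 8 it was 0.365, 0.0924 or 0.0650. The call was also lost in 6 other settings, with the same direction. DESeq2 gave -1.40 with an adjusted p of 1.00, summing runs of neighbouring wells -1.38 with 0.107, and limma voom with those runs as a random block -0.98 with 0.121. Fitting the regions apart gave an adjusted p of 0.452, setting values of 1 to 0 gave 0.571, and leaving out libraries with a negative probe of 5 or more gave 0.993.

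In the other groups Cox6a1 differed less between the genotypes. The log2 differences of APOE4 from APOE3 were -0.21 ± 0.41 (SE) in vehicle cortex, -0.078 ± 0.34 in DC cortex, -0.83 ± 0.55 in vehicle hippocampus, -0.034 ± 0.41 in DD hippocampus and 0.18 ± 0.60 in DC hippocampus, none of them past the threshold. The DD effect on Cox6a1 in cortex differed between the genotypes by -1.23 ± 0.47 (SE) at an adjusted p of 1.00. Cox8a in DD cortex had a mean ratio of 2.99 ± 1.77 (SD, n = 9) among APOE3 libraries and 1.40 ± 0.337 (SD, n = 8) among APOE4 libraries. Its log2 difference of -1.21 ± 0.32 (SE) had an adjusted p of 0.166 by edgeR, and 0.046 with upper-quartile scaling. With the 6 pairs averaged, 0 members were called, against 0.0351% of all genes; Cox8a had the smallest p, with -0.54 ± 0.16 (SE) and an adjusted p of 0.801.

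**Figure D5:**
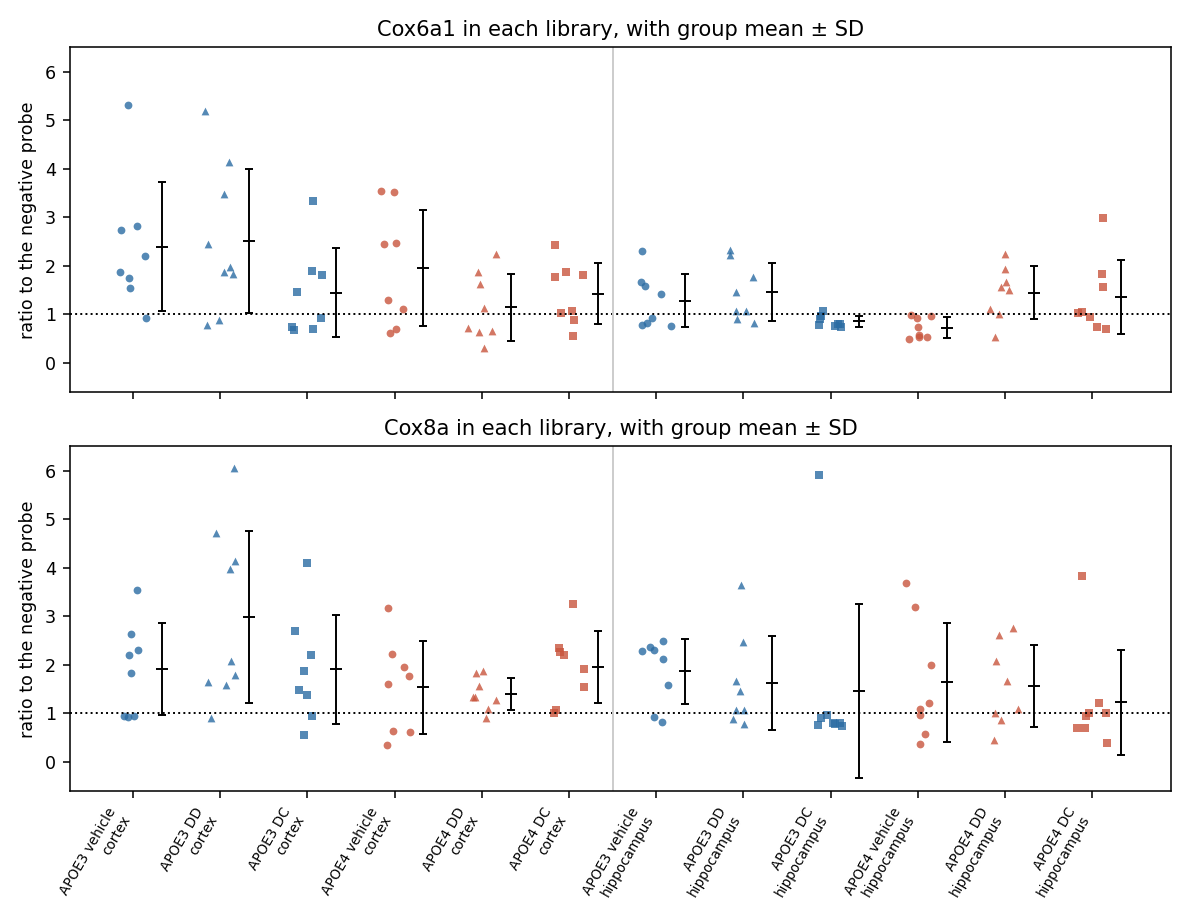
Ratio to the negative probe of Cox6a1 (top) and Cox8a (bottom) in each library (points; blue APOE3, red APOE4; circles vehicle, triangles DD, squares DC), with group mean ± SD (bars). In DD cortex the APOE3 libraries reach 5.18 for Cox6a1 and 6.05 for Cox8a, and the APOE4 libraries 2.24 and 1.87.

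DD was compared with DC directly. The edgeR test called 0 of 348 member tests, against 0.131% of all gene tests, and DESeq2 called 0, against 0.0664%. At an unadjusted p under 0.05 there were 18, 5.17%, against 3.97% of all gene tests. The 3 members with the smallest p were Ndufa1 and Ndufa3, accessory subunits of complex I, and Cox8a. Ndufa1 in APOE4 cortex had a mean ratio of 1.66 ± 0.854 (SD, n = 8) with DD and 0.924 ± 0.495 (SD, n = 8) with DC, a log2 difference of 0.90 ± 0.30 (SE; adjusted p = 0.528, edgeR). Its ratios ran from 0.731 to 3.43 with DD and from 0.362 to 1.66 with DC, so the groups overlapped. Ndufa3 in APOE4 hippocampus differed by 0.72 ± 0.27 (SE; adjusted p = 0.331, edgeR), with ratios from 0.555 to 3.36 with DD and from 0.396 to 1.22 with DC. Cox8a in the same region differed by 0.78 ± 0.31 (SE; adjusted p = 0.368, edgeR), with ratios from 0.448 to 2.75 and from 0.396 to 3.84.

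Whether a treatment acted differently in the genotypes was tested as an interaction. The edgeR test called 0 of 348 member tests, against 0.00751% of all gene tests, and DESeq2 called 0 members and 0 of all genes. At an unadjusted p under 0.05 there were 10, 2.87%, against 1.48% of all gene tests. The 3 members with the smallest p were Cox6a1, Atp5g3 and Atp5pb, of which Atp5pb rests on the library named above.

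Over all 28 comparisons, 4 of 2436 member tests were called, 0.164%, against 0.131% of all gene tests. Of these calls, the 3 of Atp5pb turned their sign when 1 library was left out, and the 1 that did not was Cox6a1.

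Other genes of the pathway were read from lists chosen with results of these data known. The 13 subunits encoded in mitochondrial DNA were not matched to a row by name and are not analysed here. Of the 50 assembly factors, 2 were called, both lower, which is 0.143% of their 1400 tests, against 0.131% of all gene tests. Coa5, which assembles complex IV, stood far above the members at 29.9 in cortex and 10.4 in hippocampus, and its call was in hippocampus against cortex of APOE4 DC mice (log2 -2.26 ± 0.48 SE, adjusted p = 0.0013, edgeR), where 0.521% of all genes were called. Lyrm7, a chaperone of complex III, was called lower after DD than vehicle in APOE4 cortex (-1.65 ± 0.36 SE, adjusted p = 0.0067, edgeR); its vehicle libraries ran from 0.704 to 5.55. Of 17 regulators of mitochondrial biogenesis, Sirt3, a mitochondrial deacetylase, was called lower after DD and after DC in APOE4 hippocampus, 0.420% of 476 tests. Of 18 genes of the TCA cycle, Idh3a and Pdhb were called, in 1.19% of 504 tests. Both were lower after each treatment in APOE4 hippocampus and higher in hippocampus than in cortex of APOE4 vehicle mice. In that vehicle group 1 library carried each of these genes. Sirt3 reached 18.2 in APOE4 vehicle hippocampus 1 and at most 2.17 in the other 7. In APOE4 vehicle hippocampus 3, Idh3a reached 19.4 and Pdhb 12.9, against at most 1.11 and 2.97 in the other 7. Of 20 genes for electron carriers and coenzyme Q, 14 carriers of nucleotides, phosphate and protons, and 8 antioxidant enzymes, 0 were called. Slc25a3, the phosphate carrier that supplies ATP synthase, stood at 1.85 in cortex and 1.11 in hippocampus. The list medians ran from 0.930 to 0.941 in cortex, beside 0.944 for the members.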

How the data were processed

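The deposited table holds expected counts per gene for 97 libraries, not scaled to depth, with 19963 rows of which 1 is the negative probe. The values are whole in all but 4 rows. Which tool the authors used to count is not given in the sources used here; mm10 is named in the submitters' processing notes. Members, gene lists and rules for naming genes were chosen with earlier results of these data known.

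Values were divided by the negative probe of their library. For tests they were rounded and fitted over all 97 libraries and 12 groups with edgeR 4.0.16 in R 4.3.3 (TMM scaling, quasi-likelihood F test, Benjamini-Hochberg adjustment, threshold 0.05). Genes above 1 in at least 8 libraries were kept, which was all 19962. Standard errors were derived from the p-values. The 28 comparisons were 8 of treatment, 6 of genotype, 6 of region, 4 of DD with DC and 4 interactions; 4 averaged comparisons were added after the values were seen. The count test was tested on simulated data for DD against vehicle in APOE3 cortex, where it missed most 2-fold changes and nearly all lowered genes. A lack of calls is thus weak evidence that a gene did not change. Libraries next to each other on a plate that share a group were taken as runs of wells, 49 in all. The alternatives tried were DESeq2 1.42.0, limma voom (limma 3.58.1) with runs as a random block, 2 other scalings, summing runs, setting values of 1 to 0, fitting the regions apart, and leaving out libraries. No sample was identical to another (0 of 97). Library totals are in the text; with a median member count of 2, the precision of a single ratio is low.

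The name rule takes 88 genes, of which 1 is not reported here and enters no value of the members. The genes named are the 8 highest members of each region, the 4 lowest, all that were called, the 3 of smallest p where none was, and fixed subunits and isoforms. The genes of promoter motifs, Ndufb1, Ndufs3 and Ndufs7 were named after their values were seen. Gene symbols follow the table; 86 of the 87 members were found in RefSeq.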

Additional observations from a re-analysis of the deposited data

Results flagged for a closer look

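Within groups of 8 or 9 libraries, a library was singled out when its gap to the nearest other, divided by the group's range, passed Dixon's 95% critical value. This was done for the members' mean ratio and for Cox6a1, Cox8a, Atp5a1 and Atp5pb in each group. It met the criterion in 10 of 60 groups of values, where chance gives about 1 in 20 for normally distributed values. That rate does not apply directly here, since these genes were chosen for high or called values and their ratios come from small counts with a lowest value of 1.

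The members' mean ratio stood apart at 1.57 in APOE4 vehicle hippocampus 6 (the other 7 libraries ran from 0.978 to 1.13). This is the library in which Atp5pb was 29.8, from 56 counts, with 0.371 to 1.84 in the others.

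The other 8 came from 3 to 11 counts. Cox6a1 reached 5.31 in APOE3 vehicle cortex 2 and 3.35 in APOE3 DC cortex 2. Cox8a reached 5.91 in APOE3 DC hippocampus 8 and 3.84 in APOE4 DC hippocampus 3. Atp5a1 reached 7.51 in APOE3 vehicle cortex 5, 3.15 in APOE3 vehicle hippocampus 8 and 1.61 in APOE3 DC hippocampus 8. Atp5pb reached 3.79 in APOE3 DC hippocampus 6.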

How the results depend on the processing

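Counts of member calls changed by more than 1.5 times under these settings. With DESeq2, whose defaults replace counts far from their group, calls fell to 0 for treatment (from 2), genotype (from 1) and region (from 1). Of all gene tests it called 0.0376%, 0.00501% and 0.125% there. The averaged comparisons gave 1 (from 0), 0.287% of member tests against 0.148% of all. The limma voom fit with runs of wells as a random block gave 0 for treatment and region, against 0.00751% and 0.0518% of all gene tests. It gave 14 for genotype, all lower in APOE4, and 66 for the averaged comparisons. These are 2.68% and 19.0% of member tests, against 2.19% and 17.9% of all gene tests. With values of 1 set to 0 there were 14 calls for treatment, 64 for genotype, all higher in APOE4, 0 for region (against 0.104% of all gene tests) and 91 averaged. For treatment, genotype and the averaged comparisons these are 2.01%, 12.3% and 26.1% of member tests, against 2.26%, 14.6% and 28.2% of all gene tests. The direction between genotypes thus turned with the setting; the cause was not tested. Upper-quartile scaling gave 2 for genotype, 2 for region and 1 averaged. These are 0.383%, 0.383% and 0.287% of member tests, against 0.0676%, 0.212% and 0.134% of all gene tests. Scaling to the negative probe gave 2 for region and 1 averaged, 0.383% and 0.287%, against 0.221% and 0.124%. Summing runs of wells gave 0 for genotype and 0 for region, against 0.0559% and 0.148%. Without libraries of negative probe 5 or more there were 1 for treatment, 0.144% against 0.106%, and 0 for genotype, against 0.117%. With the regions fitted apart there were 0 for genotype, against 0.0509%. Without APOE4 vehicle hippocampus 6 there were 0 for treatment and 0 for region, against 0.141% and 0.180%. The stricter filterByExpr filter left 58 genes and 0 members and gives no value.

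Signs turned in 6 fits of single calls, all of Atp5pb. These were DESeq2 (log2 0.41 for DD, 0.10 for DC and -0.63 for region) and the fit without APOE4 vehicle hippocampus 6 (0.42, 0.18 and -0.66). Without APOE4 DC cortex 3 the values were -1.87, -2.12 and 1.64. The call of Cox6a1 kept its direction in every fit run, with log2 differences from -1.60 to -1.08 over the 17 fits that each left out 1 library.

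In cortex 3 members were above 1.5. The difference in the members' ratio moved by more than 1 pooled SD when their median replaced their mean, and the sign turned in 4 of 8 treatment, 4 of 6 genotype and 2 of 6 region comparisons. Where most members of a library held the lowest value, that median was 1 divided by the negative probe and followed background alone. The difference became 0.30 for DD in APOE3 cortex, 0.089 for DD and 0.14 for DC in APOE4 cortex, and 0.19 for DD and 0.089 for DC in APOE3 hippocampus. For APOE4 against APOE3 it became 0.11 in DC cortex and 0.30, 0.14 and 0.18 in vehicle, DD and DC hippocampus, and for hippocampus against cortex 0.068 in APOE4 vehicle. As a share of all counts, DC in APOE3 hippocampus became 0.073. Without libraries of negative probe 5 or more, DC in APOE4 hippocampus became 0.11, and APOE4 against APOE3 in DC hippocampus 0.12. The sign turned in all 3. Leaving out those libraries kept only APOE4 DC hippocampus 3 and 4 of their group, so 0.11 and 0.12 rest on these libraries. The other alternatives of these differences stayed within 1 pooled SD. No paired analysis was possible because the labels carry no replicate numbers that groups share. Most member counts were too low for a precise ratio.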
